A study of Homo sapiens with 4 samples.

Results

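Dense stretches of open chromatin, in which 5 or more neighbouring accessible regions follow each other at short distances, were examined in A375 melanoma cells. Regions were sorted by position, neighbours separated by 3000 bp or less were joined into chains, and the regions of chains with at least 5 regions were kept. This position rule, which used no signal and no fold change, gave 1378 regions in 253 stretches out of 125985 nuclear regions in the authors' deposited table, or 1.09%. Chains just below the limit, with 4 regions each, numbered 637 and held 2548 regions.

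A375 is an established human melanoma cell line with an activated BRAF oncogene. The cells were grown in serum-containing medium and received either 1 mM octanoate, a medium-chain fatty acid, for 48 h, or isopropanol, the vehicle, with 2 libraries for each treatment. Accessibility was read by ATAC-seq: the Tn5 transposase inserts sequencing adapters into open DNA. The labels do not say whether the 2 libraries of a group came from separate cultures, so the authors' p-values measure only the spread between these libraries, which may be technical. The authors' deposited table gives 1 mean and 1 fold change per region and no value for a single library, so neither the values of each library nor their overlap can be shown. The depth per library is unknown.

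Open regions are not spread evenly along chromosomes. They gather where many regulatory proteins bind, most often around a promoter and its nearby enhancers, and long clusters of enhancers are known for lying close to genes that define a cell's identity or signalling state. Proteins such as lineage transcription factors, nuclear receptors and feedback regulators of growth factor signalling are typical neighbours of such clusters.

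The 250 bases before the transcription start are shown for 5 genes whose starts lay inside dense stretches, to show what kind of promoter such stretches held. BHLHE40 and PANK4 had the start regions that passed the authors' threshold, IRF2BP2 belonged to the stretches with the highest signal, and SERPINE2 and TSPAN14 to those with the most regions. Sequences are from RefSeq on GRCh38.p14, written 5′ to 3′ on the strand of the gene, and capitals mark the matches of any of the 8 motifs searched.
BHLHE40: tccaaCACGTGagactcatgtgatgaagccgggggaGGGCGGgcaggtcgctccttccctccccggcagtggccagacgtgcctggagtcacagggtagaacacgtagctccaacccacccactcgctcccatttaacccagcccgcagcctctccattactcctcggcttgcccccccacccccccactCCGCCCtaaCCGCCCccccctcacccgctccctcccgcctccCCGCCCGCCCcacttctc
PANK4: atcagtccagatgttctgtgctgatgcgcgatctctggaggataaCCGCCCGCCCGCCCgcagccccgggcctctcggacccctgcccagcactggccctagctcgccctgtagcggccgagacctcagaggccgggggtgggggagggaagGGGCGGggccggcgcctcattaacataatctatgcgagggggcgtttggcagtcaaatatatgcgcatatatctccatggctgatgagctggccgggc
IRF2BP2: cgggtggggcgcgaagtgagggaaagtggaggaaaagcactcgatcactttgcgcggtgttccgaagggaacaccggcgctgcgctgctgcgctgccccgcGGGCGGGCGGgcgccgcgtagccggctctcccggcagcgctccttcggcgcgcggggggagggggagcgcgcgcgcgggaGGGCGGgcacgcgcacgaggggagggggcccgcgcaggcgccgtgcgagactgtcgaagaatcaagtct
SERPINE2: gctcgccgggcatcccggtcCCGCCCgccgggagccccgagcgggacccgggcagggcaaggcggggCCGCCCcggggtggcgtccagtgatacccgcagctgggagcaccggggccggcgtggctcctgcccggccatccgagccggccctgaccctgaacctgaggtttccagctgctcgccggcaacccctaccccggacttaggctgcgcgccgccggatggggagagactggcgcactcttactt
TSPAN14: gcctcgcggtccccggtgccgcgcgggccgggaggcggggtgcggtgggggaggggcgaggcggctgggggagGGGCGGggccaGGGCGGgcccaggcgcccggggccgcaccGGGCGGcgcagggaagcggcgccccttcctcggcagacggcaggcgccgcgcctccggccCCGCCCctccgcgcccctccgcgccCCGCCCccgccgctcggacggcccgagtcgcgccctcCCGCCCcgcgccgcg
The BHLHE40 promoter is chr3:4979187-4979436 on the plus strand, PANK4 chr1:2526597-2526846 on the minus strand and IRF2BP2 chr1:234610179-234610428 on the minus strand. SERPINE2 is chr2:224038641-224038890 on the minus strand and TSPAN14 chr10:80454060-80454309 on the plus strand. Each of the 5 windows was rich in G and C, from 64.8% in PANK4 to 88.0% in TSPAN14, and held between 16 CpG dinucleotides in BHLHE40 and 45 in TSPAN14. GC boxes, the GGGCGG element bound by SP-family factors, numbered 5 in BHLHE40, 4 in PANK4, 3 in IRF2BP2, 2 in SERPINE2 and 6 in TSPAN14, counted on both strands with overlapping matches. BHLHE40 also held 1 E-box, CACGTG, the element of basic helix-loop-helix factors, and the other 6 motifs had 0 matches in these 5 windows.

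The promoters of dense stretches were GC-rich like other open promoters. Over the 95 protein-coding genes with a start inside a dense stretch, the median window held 21 CpGs and 66.0% G and C, against 22 CpGs and 65.6% for 11079 genes whose start lay in another open region. The 4669 genes with no open region at the start had 4 CpGs and 52.8%. A GC box was present in 64.2% of dense-stretch promoters, 69.9% of promoters in other regions and 57.2% of all 15843 promoters. The AP-1 element TGANTCA occurred in 10 of the 95 (10.5%), against 3.83% in other open promoters and 5.02% of all. E-boxes occurred in 16 of the 95 (16.8%), against 8.94% in other open promoters and 7.88% of all. The cAMP response element TGACGTC was found in 8.42% against 5.20% and 4.21%, and the TATA box TATAAA in 10.5% against 5.01% and 9.06%. The CCAAT box CCAAT was found in 40.0% of dense-stretch promoters, 35.1% of other open ones and 34.3% of all. The ETS element CCGGAAG was less frequent, in 10.5% against 15.8% and 11.9%, and the NRF1 element GCGCATG was found in 6.32% against 6.68% and 5.16%. These shares rest on few promoters, and a match of letters is not evidence of binding.

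Most dense stretches were chains of 5 regions with unequal signal. Of the 253, 187 had 5 regions, 40 had 6, 14 had 7, 5 had 8, 5 had 9 and 2 had 10. Their median span was 10546 bp, from 5639 to 23517 bp, and open regions covered a median of 35.4% of it. Gaps within stretches had a median of 1478 bp, against 12193 bp between all neighbouring nuclear regions. The rule limited gaps within stretches to 3000 bp, so this contrast follows from the selection. The mean normalized read count of a region, averaged by the authors over the 4 libraries, had a median of 66.6 in the strongest region of each stretch, 32.7 in the next, then 18.0, 11.0 and 6.69 per the authors' deposited table. A single region held a median of 42.4% of the summed signal of its stretch, from 19.8% to 94.3%. It was the outermost region of the chain in 90 of 253 stretches, while 506 of the 1378 regions were outermost.

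**Figure D1:**
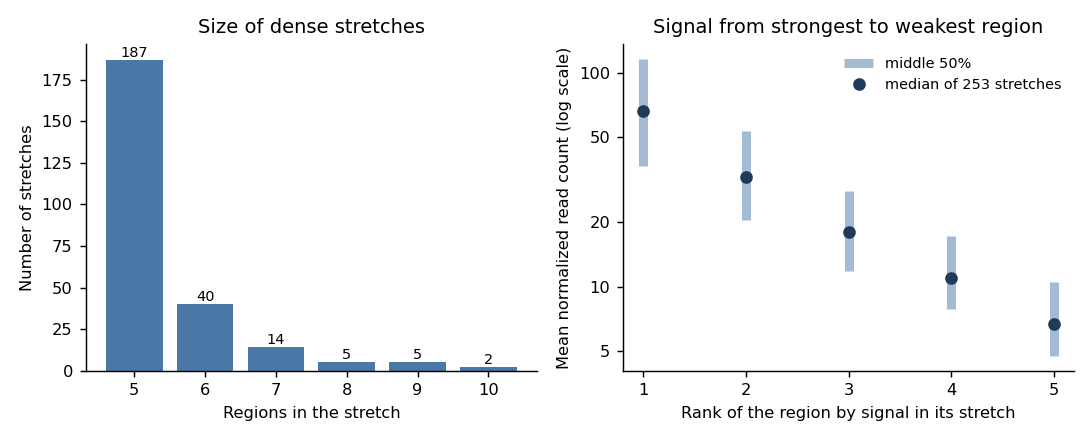
The left panel counts dense stretches by number of regions (bars), from 187 with 5 regions to 2 with 10. The right panel plots the mean normalized read count on a log axis by rank of the region in its stretch, as median (points) and middle 50% (bars) over 253 stretches: the median drops from 66.6 in the strongest region to 6.69 in the fifth.

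Regions of dense stretches were broader and stronger than the rest. They had a median width of 500 bp against 436 bp for the other nuclear regions, and a median mean of 16.6 against 12.1 normalized reads per the authors' deposited table. Regions of at least 2 kb made up 5.81% of them (80 of 1378) and 2.32% of the others. Together the dense-stretch regions held 1.55% of the summed nuclear signal. These traits rose with chain size and were not particular to dense stretches. Regions alone had a median width of 429 bp and a median mean of 11.7. Those in chains of 4 had 480.5 bp and 14.8, with 3.81% of at least 2 kb, per the authors' deposited table. Chromosome 17 had the highest share of its regions in dense stretches, 1.79%, followed by chromosome 1 with 1.71% in 43 stretches. Chromosome 16 had the lowest share above 0, 0.306%, and chromosome 21 had 0 of 949 regions in a dense stretch.

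Gene starts were found in some stretches and not in others. A region was counted at a gene start when it lay within 1 kb of a start in the RefSeq promoter table, and starts on chromosome 8 were not used here, which left 240 stretches and 1306 of their regions. Such a start was present in 118 of the 240 stretches and at the strongest region of 79. Of the 253, 89 held a protein-coding start, 29 only a start of a long noncoding RNA, 53 lay within a protein-coding gene's span with no listed start, 69 lay between genes with none, and 13 were on chromosome 8. Among regions, 167 of 1306 (12.8%) were at a gene start, close to 14701 of 118095 other regions (12.4%). Exons and introns were not used here. In 4 cases a microRNA hairpin lay inside a region, those of MIR6892 (chr7:143382686-143382800), MIR130A (chr11:57641198-57641286), MIR4492 (chr11:118910708-118910787) and MIR1469 (chr15:96333261-96333307). Their regions had log2 fold changes of 0.14, 0.26, 0.07 and 0.22 per the authors' deposited table, with standard errors of 0.12, 0.50, 0.21 and 0.13.

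The series compared octanoate with vehicle. Per region, the log2 fold change is octanoate over vehicle, and a positive value means more accessible after octanoate. Fold changes of all regions lay above 0 on balance: the median over 125985 nuclear regions was 0.23, and 72.1 percent were above 0 per the authors' deposited table. Values near 0.23 in a dense stretch are therefore at the level of the whole table, and whether this level is a scaling of the libraries cannot be told apart from a general rise. An adjusted p was given to 11184 nuclear regions with a mean of at least 63.8, called tested here. These included 191 of the 1378 dense-stretch regions (13.9%, against 8.82% of the others and 12.0% of regions in chains of 4). The weaker regions of most stretches had no test: 115 stretches had 0 tested regions, 93 had 1, 38 had 2, 6 had 3 and 1 had 4.

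Dense-stretch regions as a group had fold changes close to those of other regions. Their median log2 fold change was 0.20 against 0.23 in the others, and 978 of 1378 (71.0%) were above 0, per the authors' deposited table. Among tested regions the order was the other way, 0.21 against 0.19, so neither difference has a fixed sign. From the 5th to the 95th percentile the 191 tested regions ran from -0.15 to 0.53 per the authors' deposited table. Summed over regions, the signal implied by each mean and fold change was higher after octanoate by 0.20 on the log2 scale in dense stretches and by 0.21 in the others. At the members' median standard error of 0.52, an unadjusted p of 0.05 needed a log2 fold change of 1.02, so moderate differences were not detectable in a typical region.

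Past the authors' threshold, an adjusted p under 0.05 (DESeq2, Benjamini-Hochberg), were 3 of the 191 tested regions, all higher after octanoate, per the authors' deposited table. That is 1.57%, beside 1.02 percent of all tested regions (114 of 11184), and 0 of 11184 were lower. With 3 regions the share is not separable from the background. At an unadjusted p under 0.05, 39 (20.4%) were higher beside 14.8 percent of all tested regions, and 1 was lower beside 0.107 percent. Chains of 4 regions, just below the limit, had similar shares, with 66 of 307 tested regions (21.5%) higher at an unadjusted p under 0.05 and 5 (1.63%) past the threshold, so neither share sets dense stretches apart from them. The 40 regions lay in 36 stretches, and the 39 higher ones had log2 fold changes of 0.23 to 0.94 per the authors' deposited table. After the median of the tested regions, 0.19, was subtracted, 0 of the 191 had an adjusted p under 0.05, beside 0.0536 percent of all tested regions (6), while 8 (4.19%) were higher at an unadjusted p under 0.05 beside 3.17 percent of all tested regions.

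The first of the 3 covers the start of BHLHE40, a basic helix-loop-helix repressor of the circadian clock and hypoxia response whose promoter is printed above. This region, chr3:4977027-4980756, had a mean of 499.9 and rose by 0.43 in log2 fold change (standard error 0.11, adjusted p 0.0174 by DESeq2) per the authors' deposited table. The stretch, chr3:4976125-4987576, held 4 more regions, with log2 fold changes of 0.56, 0.50, 0.58 and 0.26 and standard errors of 0.61, 0.52, 0.35 and 0.15 per the authors' deposited table. All 5 were above 0, and the last, with a mean of 210.1, was the other tested one and did not pass. The summed signal of the stretch was 779, and the implied ratio was 0.40 on the log2 scale. After centring, the adjusted p of the start region was 1.0.

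The second lies in a stretch between genes whose nearer end is 77.0 kb from DUSP5, which encodes a nuclear phosphatase that switches off ERK. It is chr10:110407824-110408824, with a mean of 73.1, and rose by 0.94 (standard error 0.25, adjusted p 0.0276 by DESeq2) on the log2 scale per the authors' deposited table. Its 4 neighbours up to chr10:110420912 had means of 68.1, 60.6, 11.7 and 25.2 per the authors' deposited table. Their log2 fold changes were 0.81, 0.74, 0.39 and 1.26, with standard errors of 0.26, 0.28, 0.62 and 0.43, per the authors' deposited table. Unlike the BHLHE40 stretch, signal was spread over several regions, and the implied ratio of 0.85 stood beside a maximum of 0.88 over the 253. The second region was tested, with an adjusted p of 0.0846 per the authors' deposited table, and after centring the first had an adjusted p of 0.465.

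The third covers the start of PANK4, a member of the pantothenate kinase family, beside HES5, a target gene of Notch. It is chr1:2525609-2527313, with a mean of 172, and rose by 0.61 (standard error 0.17, adjusted p 0.0305 by DESeq2) on the log2 scale per the authors' deposited table. The other 4 regions, up to chr1:2535254, were weak, with means of 5.30 to 17.5 per the authors' deposited table. Their log2 fold changes, in order of position, were 0.80, -0.73, 0.99 and 0.55, with standard errors of 0.66, 0.98, 0.90 and 0.50 per the authors' deposited table, and none was tested. After centring the adjusted p of the PANK4 region was 0.899. The BHLHE40 and PANK4 regions lie within 5 Mb of a chromosome end, where 2 of 17 tested dense-stretch regions passed, beside 4.37 percent of all tested regions there, and 1 of 174 passed elsewhere, beside 0.688 percent of all tested regions elsewhere. Tested dense-stretch regions had a median log2 fold change of 0.26 near chromosome ends and 0.20 elsewhere, and other tested regions near ends had 0.30, per the authors' deposited table. Over all regions near ends, tested or not, the medians were 0.21 in dense stretches and 0.33 in the others, and the part of position in these results was not tested.

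**Figure D2:**
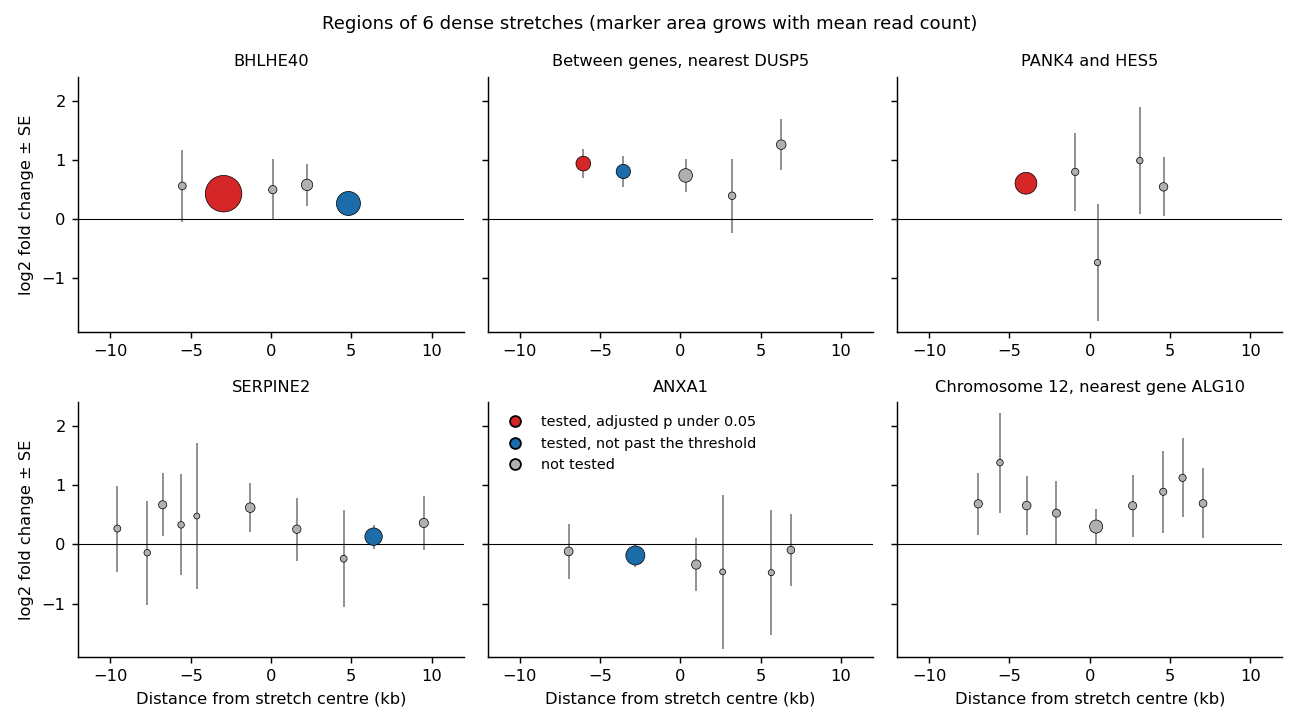
Deposited log2 fold change (vertical axis, bars are the authors' standard error) against distance from the centre of the stretch in kb, for the regions of 6 stretches, with marker area growing with the mean read count. Red regions passed an adjusted p of 0.05, blue ones were tested and did not, and grey ones were not tested: all 5 regions near DUSP5 and in BHLHE40 are above 0, all 6 of ANXA1 below.

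The stretches with the most regions differed in signal and in fold change. SERPINE2, which encodes a secreted inhibitor of serine proteases, had 10 regions in chr2:224023136-224042677, with a summed mean of 219 per the authors' deposited table. The region at its start was the only one tested, at a mean of 106 and a log2 fold change of 0.13 (standard error 0.20), and 8 of 10 regions were above 0 per the authors' deposited table. The other stretch with 10 regions, chr4:135234861-135252997, lay 1033 kb from the nearest protein-coding gene, PABPC4L. Its summed mean was 155 and its implied log2 ratio 0.10, with 0 tested regions.

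Stretches of 9 regions lay at ZEB2, SHH, TSPAN14 and BCL9L and on chromosome 12. ZEB2 encodes a zinc finger repressor of E-cadherin, and its stretch, chr2:144505524-144524869, had 4 of 9 regions above 0 and an implied log2 ratio of -0.030. SHH encodes the ligand Sonic hedgehog, and its stretch, chr7:155801024-155817933, had 3 of 9 above 0, with a median log2 fold change of -0.04 per the authors' deposited table. Its implied ratio was 0.18, of the opposite sign. Its strongest regions, with means of 47.3 and 37.9, both below the tested range, had log2 fold changes of 0.18 and 0.79 (standard errors 0.30 and 0.35) per the authors' deposited table. TSPAN14, a tetraspanin partner of the protease ADAM10, had 8 of 9 above 0 in chr10:80448185-80468308, with log2 fold changes of 0.14 and 0.25 in its 2 tested regions (standard errors 0.18 and 0.24) per the authors' deposited table. BCL9L, a coactivator of beta-catenin, had 3 tested regions in chr11:118906969-118930485, at 0.07, 0.06 and 0.18 with standard errors of 0.21, 0.20 and 0.21 per the authors' deposited table. This was the longest stretch, at 23517 bp, and its fold changes were low for this table.

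The remaining stretch of 9, chr12:34340677-34355182, lay 312 kb from ALG10, its nearest protein-coding gene. All 9 regions were above 0, from 0.30 to 1.38 with a median of 0.69 per the authors' deposited table, and 0 were tested. Its strongest region had a mean of 55.8 and a log2 fold change of 0.30 (standard error 0.29) per the authors' deposited table. The implied ratio over the stretch was 0.59.

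The 5 stretches with the highest summed signal lay at 4 genes and at 1 place far from genes. The highest sum, 2540, belonged to chr17:22517409-22532764, 813 kb from KCNJ18, and 2353 of it came from 1 region, chr17:22521212-22524692. That region had a log2 fold change of 0.13 (standard error 0.08) per the authors' deposited table. BHLHE40 was next with 779. IRF2BP2, a corepressor that binds IRF2, followed with a sum of 670 over 7 regions in chr1:234597914-234613785, and its start region, with a mean of 469, had a log2 fold change of 0.20 (standard error 0.11) per the authors' deposited table. IRS2, which couples insulin and IGF receptors to PI3 kinase, had a sum of 569 in chr13:109773280-109787889. Its start region, chr13:109781700-109787889, had a mean of 508 and a log2 fold change of 0.26 (standard error 0.11, unadjusted p 0.0203 and adjusted p 0.231 by DESeq2) per the authors' deposited table. NR2F2, the orphan nuclear receptor COUP-TFII, had a sum of 502 in chr15:96325570-96341498. Its 2 start regions, with means of 92.3 and 330.1, had log2 fold changes of 0.17 and 0.22 (standard errors 0.22 and 0.13) per the authors' deposited table. All 5 regions were above 0 in the IRS2 stretch, in the NR2F2 stretch and in the one near KCNJ18. Apart from BHLHE40, the implied ratios of these stretches, 0.13 to 0.26, lay around the level of the whole table.

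At gene starts the fold changes of dense stretches had a higher median than those of other starts, a description with no test between them. This comparison was not among the planned ones. Median log2 fold changes were 0.19 over the 167 dense-stretch regions at a start and 0.14 over the 14701 other start regions, per the authors' deposited table, a difference of 0.049. Away from starts the order was the other way, 0.21 over 1139 regions against 0.25 over 103394. In tested regions at starts the medians were 0.20 (79 regions) and 0.16 (6078 regions) per the authors' deposited table. At an unadjusted p under 0.05, 15 of the 79 (19.0%) were higher, against 575 of 6078 (9.46%) and beside 9.58 percent of all tested start regions. The 15 regions lay in 15 stretches on 9 chromosomes, 5 of them on chromosome 1. Away from starts the shares were 23 of 103 (22.3%) and 971 of 4380 (22.2%), beside 22.2 percent of all such tested regions.

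Values that moved with the difference at starts are as follows. The 79 dense-stretch start regions were stronger and had smaller errors, with a median mean of 125 against 106 and a median standard error of 0.19 against 0.21 per the authors' deposited table. Over 5 Mb from a chromosome end, 10 of 68 (14.7%) were higher at an unadjusted p under 0.05, against 435 of 5520 (7.88%) at other starts. Without chromosome 1 the shares were 10 of 67 (14.9%) and 448 of 5279 (8.49%). Without chromosome 3, which holds BHLHE40, the difference of medians was 0.027. After centring on the tested median, 3 of 79 (3.80%) were higher at an unadjusted p under 0.05, against 56 of 6078 (0.921%). In chains of 8 or more regions, with 12 start regions, the difference was -0.028. Chain size below 5 showed no steady order at starts: 383 of 4273 regions alone (8.96%), 138 of 1294 in chains of 2 (10.7%) and 54 of 511 in chains of 3 or 4 (10.6%). With the other start regions weighted to the same distribution of mean signal the difference of 0.049 was 0.040, and over 5 Mb from a chromosome end it was 0.032. Regions are not replicates, so these values carry no error between libraries.

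**Figure D3:**
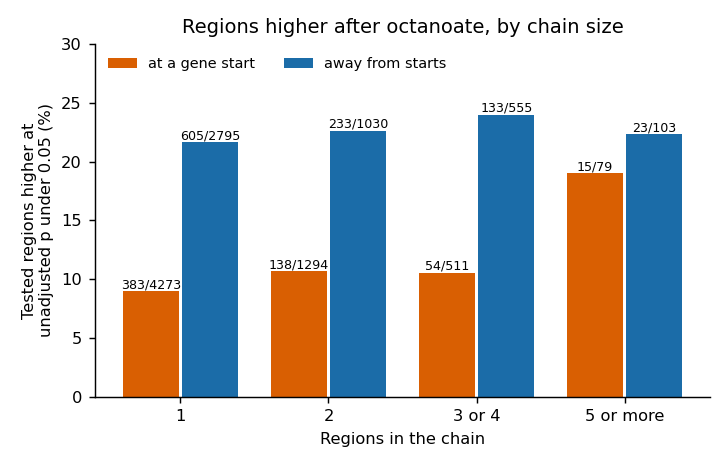
Share of tested regions higher after octanoate at an unadjusted p under 0.05 (vertical axis, percent), by number of regions in the chain, at gene starts (orange) and away from them (blue). Counts stand on the bars: the share at starts is 8.96% for regions alone and 19.0% in chains of 5 or more, and away from starts it is between 21.6% and 24.0% throughout.

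**Figure D4:**
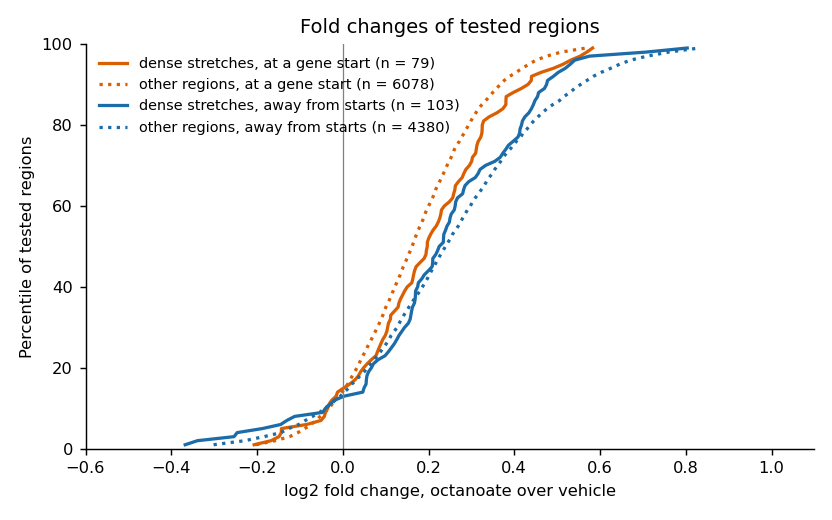
Percentile of tested regions (vertical axis) against deposited log2 fold change (horizontal axis), for dense stretches (solid) and other regions (dotted), at gene starts (orange) and away from them (blue). At starts the solid curve lies to the right of the dotted one through most of the range, with medians of 0.20 and 0.16, while away from starts the medians are 0.22 and 0.24.

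Medians were also taken by kind of start. At protein-coding starts the medians were 0.19 over 120 dense-stretch regions and 0.14 over 11913 others per the authors' deposited table, whereas at starts of long noncoding RNAs alone they were 0.22 over 47 and 0.21 over 2788. Broad regions of at least 2 kb gave 0.20 in dense stretches (80 regions) and 0.15 elsewhere (2885) per the authors' deposited table. By position within the chain, the 506 outermost regions had a median of 0.24 and the 872 inner ones 0.18 per the authors' deposited table. By chromosome, dense-stretch regions had the lower median on 8 of the 12 chromosomes with at least 50 of them, with differences from -0.19 to 0.065.

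Neighbours in a stretch were compared with neighbours at wider gaps. Over 1125 adjacent pairs inside dense stretches, the median absolute difference of log2 fold changes was 0.495 times its error, computed from both deposited standard errors. It was 0.458 for 20664 joined pairs in shorter chains and 0.454 for 28781 neighbours over 30 kb apart. Signs matched in 61.4%, 63.4% and 60.9% of these pairs. Pearson's r was 0.115, 0.124 and 0.061 over the same pairs, which share the same 4 libraries. Where both neighbours were tested, signs matched in 95.2% of 21 pairs inside dense stretches, in 86.2% of 203 joined pairs outside and in 80.0% of 320 pairs over 30 kb apart. The median absolute difference of these tested pairs was 0.554 times its error inside dense stretches, 0.528 in joined pairs outside and 0.407 over 30 kb apart. Most regions of a stretch were weak, and the typical difference between neighbours was smaller than its error in each of these sets.

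Regions of a stretch seldom all lay on the same side of 0. All regions were above 0 in 52 of 253 stretches and below 0 in 3. For stretches of 5 regions this was 40 of 187 (21.4%) above 0, and among 24910 runs of 5 consecutive other regions it was 23.6%. The implied log2 ratio per stretch had a median of 0.19, a middle 50% of 0.089 to 0.34 and a range of -0.29 to 0.88. By class its median was 0.17 with a protein-coding start, 0.20 with a start of a long noncoding RNA alone, 0.24 within a gene span, 0.22 between genes and 0.16 on chromosome 8.

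**Figure D5:**
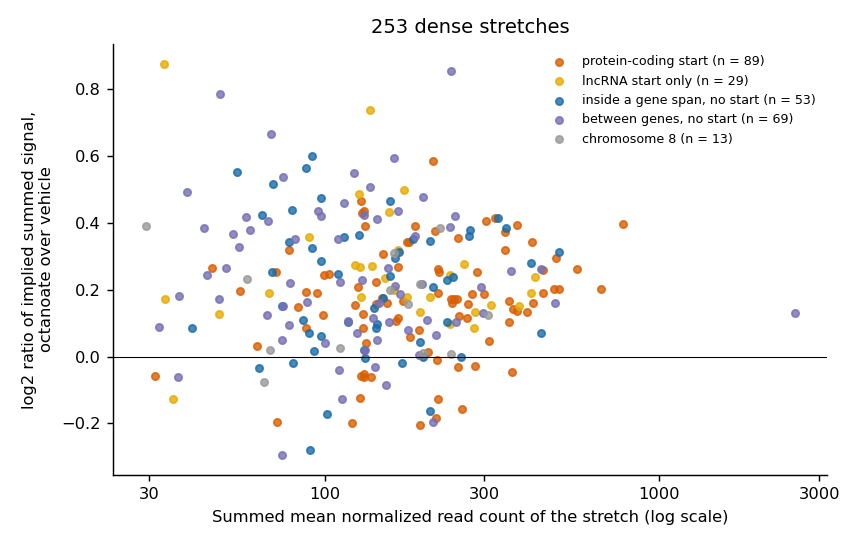
Each point is 1 of the 253 dense stretches: the log2 ratio of implied summed signal, octanoate over vehicle, against the summed mean normalized read count on a log axis, coloured by class. Ratios run from -0.29 to 0.88 and spread widest among stretches with low signal, and the point at 2540 is the stretch 813 kb from KCNJ18.

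The following stretches were chosen after their values were seen. The 3 with all regions below 0 lay at ANXA1, an annexin with anti-inflammatory action (chr9:73149227-73163769, implied ratio -0.20), at SSUH2 (chr3:8658329-8667293, -0.28) and 4.94 kb from NR2F1, the nuclear receptor COUP-TFI (chr5:93599555-93608375, -0.29). Their single tested region, at the ANXA1 start, had a mean of 129 and a log2 fold change of -0.19 (standard error 0.19) per the authors' deposited table. The 1 tested region lower at an unadjusted p under 0.05, chr1:178048181-178049314, 85.0 in mean, had a log2 fold change of -0.75, with a standard error of 0.23, p 0.00102 and adjusted p 0.0664 by DESeq2, per the authors' deposited table. Its stretch also held a tested region at 0.40 on the log2 scale (standard error 0.25) per the authors' deposited table, so these 2 regions lay on opposite sides of 0. The highest median log2 fold changes, 1.03 at chr18:14970140-14979407 and 0.91 at a stretch 2.06 kb from KIF4B, came from stretches with 0 tested regions.

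Among stretches with 3 or more tested regions, that within LMNA, which encodes lamins A and C, had 4. Their means were 104, 85.2, 179 and 85.5, and their log2 fold changes 0.41, 0.06, 0.37 and 0.48 with standard errors of 0.21, 0.23, 0.17 and 0.23, per the authors' deposited table. At ANXA2, an annexin of the plasma membrane, the 3 tested regions had log2 fold changes of 0.49, 0.21 and 0.32, with standard errors of 0.22, 0.16 and 0.17, per the authors' deposited table. HS1BP3 gave 0.41, 0.54 and 0.28 with standard errors of 0.23, 0.19 and 0.21, all above the tested median, per the authors' deposited table. Adjusted p was above 0.05 in each of these regions. MCAM, a melanoma cell adhesion molecule, gave 0.05 and -0.12 in its 2 tested regions (standard errors 0.25 and 0.24) per the authors' deposited table. A stretch across BLOC1S1, RDH5, CD63 and ITGA7, in which CD63 encodes a tetraspanin of late endosomes and melanosomes, had 1 of 5 regions above 0 and an implied ratio of -0.046.

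Few listed genes lay in a dense stretch. Over all protein-coding genes, 191 of 20037 (0.953%) had a span that overlapped one. Among 24 melanocytic lineage genes it was 1, TFAP2B, an AP-2 transcription factor of neural crest derivatives, and its start lay in the stretch chr6:50815414-50830363. That stretch had 8 regions, 6 of them above 0 and 0 tested, and its start region had a mean of 49.6 and a log2 fold change of 0.26 (standard error 0.31) per the authors' deposited table. Among 24 undifferentiated melanoma genes it was 1, LOXL2, a lysyl oxidase that crosslinks collagen, with 6 regions, 0 of them tested, and an implied ratio of 0.027. Stretches between genes had TGFBI (21.7 kb) and TNC (84.6 kb) as nearest genes. The stretch near TGFBI had 4 of 6 regions above 0 and an implied ratio of 0.066. Its tested region had a log2 fold change of -0.34 (standard error 0.22), and an untested one, chr5:136006485-136007291, had 0.91 (standard error 0.30) per the authors' deposited table. The stretch near TNC had 2 of 5 regions above 0 and an implied ratio of -0.13, and its tested region was at -0.25 on the log2 scale (standard error 0.24) per the authors' deposited table.

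Of 20 ERK output genes, 24 fatty acid oxidation and PPAR target genes and 39 HOX genes, 0 overlapped a dense stretch, although DUSP5 was the nearest gene to the stretch described above. Of all 15843 protein-coding genes with a listed start, 11875 had an open region within 1 kb of one. The listed genes had 16 of 20 melanocytic, 15 of 15 undifferentiated, 11 of 11 ERK output, 17 of 18 fatty acid oxidation, 16 of 16 housekeeping and 12 of 20 HOX starts open. Of listed melanoma marker starts 5 of 7 were open, near that background, so open starts could not check the cell type label. The exceptions were MLANA and TYR, which encode the melanosome protein MART-1 and tyrosinase. Marker starts of other cells were open in 2 of 3 for epithelium, 1 of 1 for fibroblasts, 0 of 2 for blood and 1 of 2 for endothelium.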

How the data were processed

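Regions and their values came from 1 table the authors deposited for octanoate against vehicle. Per the file headers, its signal is a mean of normalized read counts over the 4 libraries, its log2 fold change has a standard error, its score is the Wald statistic, and it gives p-values and adjusted p-values from DESeq2. It has 0 columns per library. The submitters' processing notes name Trim Galore, cutadapt, FastQC, Bowtie2, Picard, MACS2, featureCounts, DESeq2, bedtools 2.29.1 and hg38, with no role or order. How peaks were merged, filtered, scaled or shifted for the Tn5 cut is not given in the sources used here. The smallest gap between neighbouring nuclear regions was 501 bp, so openings closer than that are not listed as separate regions and could not form chains. The deposited adjusted p equals Benjamini-Hochberg adjustment over regions with a mean of at least 63.8. The other 114801 nuclear regions, listed at 1, were treated as not tested.

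Chains were built from coordinates with Python 3.11.15, numpy 2.4.6, pandas 2.3.3 and scipy 1.17.1, after the scripts were tested on simulated data, and drawn with matplotlib 3.10.9. Gene spans and 35116 starts are from RefSeq GRCh38.p14 tables, which are not complete, and starts on chromosome 8 were not used. Implied signal per group was derived from each mean and fold change, with both groups weighted equally. No test of the groups was made, and medians and shares over regions are descriptions. Centring subtracted the median of the tested regions and recomputed p from the deposited standard errors. Named stretches were the 5 with the most regions (7 with ties), the 5 with the largest summed mean, those with a region past the threshold and those at a listed gene start. A further criterion, the highest and lowest medians among stretches with 5 or more tested regions, was met by 0 stretches. Others are named as chosen after their values were seen. The stretches and the gene lists were chosen with earlier results of these data known. One result is not reported here.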

Additional observations from a re-analysis of the deposited data

How the results depend on the processing

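No paired analysis was possible because no column gives the value of a single library. Leaving out each replicate, a replicate block and edgeR with TMM scaling and no filter were also not run, and no result has a check between libraries.

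The count of 3 regions past the threshold became 0 at an adjusted p under 0.01, 0 with Benjamini-Hochberg over all nuclear regions, 0 after centring, 0 with gaps up to 1500 bp and 0 in chains of 8 or more. It became 8 (7 higher and 1 lower) at an adjusted p under 0.1, 7 with gaps up to 5000 bp and 8 in chains of 4 or more. The median log2 fold change of 0.20 became 0.18 in chains of 8 or more and -0.026 after centring on all regions. The difference from other regions, -0.026, became -0.054 in chains of 8 or more and 0.023 in tested regions. The share of nuclear regions, 1.09%, was 0.0945% and 4.05% with gaps up to 1500 and 5000 bp, and 3.12% and 0.0833% with chains of 4 and 8 or more. The share at a gene start, 12.8%, was 10.9% within 500 bp, 19.2% within 2000 bp and 9.19% with protein-coding genes alone. The neighbour difference of 0.495 errors was 0.554 in tested regions and 0.466 with gaps up to 1500 bp.

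The comparison at gene starts was itself not planned. Its alternatives, and leaving out chromosomes, were chosen after the data were seen. The difference of 0.049 became -0.028 in chains of 8 or more (12 regions) and lay between 0.020 and 0.057 in the other 9 settings. The share of 19.0% became 33.3% with gaps up to 1500 bp (6 tested regions), 0% in chains of 8 or more (4 tested regions) and 3.80% after centring. Leaving out each chromosome gave 14.9% to 20.8%. The causes of these shifts were not tested, except that stricter chain rules leave fewer regions by construction.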
